A study of Mus musculus with 4 samples.

Results

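The 9 genes described here are the core of the Hedgehog pathway, taken by their symbols from 38921 gene rows: the target and feedback genes Gli1, Ptch1 and Hhip, the transducer Smo with the transcription factors Gli2 and Gli3, and the co-receptors Boc, Gas1 and Cdon. Each symbol had 1 row, and 8 of the 9 had enough reads to be tested; Gli1 did not. They were measured by poly-A RNA sequencing in cultured pancreatic fibroblasts of mixed-strain mice, 2 libraries from KPC animals and 2 from wild type animals, all grown in serum-containing medium. The labels name the genotypes as KPC and wild type and say no more about alleles, ages, animals or cultures. By common usage, KPC mice carry engineered cancer alleles that a Cre driver switches on in the pancreatic epithelial lineage, so that fibroblasts are not the cells targeted; counts over whole genes do not separate mutant from normal alleles.

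Hedgehog ligands are secreted proteins that bind Patched receptors. Without ligand, Patched1 (Ptch1) holds the membrane protein Smoothened (Smo) inactive, and GLI proteins, Gli3 above all, act as repressors; with ligand, Smoothened acts through the primary cilium and GLI activators switch on Gli1, Ptch1 and Hhip, which are the usual readout of the pathway. Boc, Cdon and Gas1 bind ligand at the cell surface and help it reach Patched1. In pancreatic cancer the ligand is known to come mainly from epithelial cells and to act on the stroma.

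The promoters of 7 of the 9 genes were found in the RefSeq table, which gives 250 bases before and 50 after each start site in the GRCm38.p6 build. Those shown are of Gas1, the gene with the largest difference between the groups, of Ptch1, a target gene for contrast, and of Gli2, the only one of the 7 to hold the core of the GLI binding motif. Capitals mark that core, ACCACCC or on the other strand GGGTGGT. The Gas1 window lies at chr13:60177486-60177785 on the minus strand, the Ptch1 window at chr13:63565686-63565985 on the minus strand and the Gli2 window at chr1:119053570-119053869 on the minus strand.
Gas1: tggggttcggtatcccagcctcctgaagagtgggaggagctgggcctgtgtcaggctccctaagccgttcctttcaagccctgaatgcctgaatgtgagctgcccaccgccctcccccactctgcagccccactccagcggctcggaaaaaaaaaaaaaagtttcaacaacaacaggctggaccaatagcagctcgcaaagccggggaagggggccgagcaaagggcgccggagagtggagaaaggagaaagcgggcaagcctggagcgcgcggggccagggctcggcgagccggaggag
Ptch1: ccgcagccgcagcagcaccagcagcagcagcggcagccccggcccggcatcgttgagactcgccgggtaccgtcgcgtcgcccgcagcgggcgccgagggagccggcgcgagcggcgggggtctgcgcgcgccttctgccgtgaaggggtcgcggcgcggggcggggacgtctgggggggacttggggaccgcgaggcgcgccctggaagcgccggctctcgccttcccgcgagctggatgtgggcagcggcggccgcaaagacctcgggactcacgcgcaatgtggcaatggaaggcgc
Gli2: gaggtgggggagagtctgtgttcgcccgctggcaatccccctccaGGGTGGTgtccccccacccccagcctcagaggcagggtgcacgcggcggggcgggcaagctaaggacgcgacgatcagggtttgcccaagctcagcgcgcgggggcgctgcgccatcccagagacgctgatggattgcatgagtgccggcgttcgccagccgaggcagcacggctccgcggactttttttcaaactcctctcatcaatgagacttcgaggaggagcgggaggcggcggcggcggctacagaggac
The core stood in 4.61% of all 32851 promoters of this length, searched on both strands. The full GLI consensus, GACCACCCA, which contains the core, stood in 0.253% of them and in 0 of the 7. A match in these windows is a string of letters and not a binding site, and GLI factors often bind outside so short a window.

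Counts summed to 57926327 and 68312367 in the KPC libraries and to 53232634 and 22302141 in the wild type libraries. These are sums over rows that overlap, not numbers of reads. Levels are given as CPM, counts scaled to library size with TMM factors. The 8 fibroblast markers summed to 10040 and 11832 CPM in KPC and to 11445 and 10274 CPM in wild type, led by Col1a1. The libraries also held other cells' markers, in unequal amounts. All 8 macrophage and leukocyte markers were higher in both KPC libraries, at a summed 750 and 1587 CPM in KPC against 26.1 and 174 CPM in wild type. Ductal and epithelial markers summed to 1147 and 314 CPM in KPC against 30.6 and 340 CPM in wild type, and mesothelial markers to 155 and 62.6 against 7.36 and 37.0 CPM. Krt19 is in both of these lists, at 64.7 and 34.9 CPM in KPC against 5.23 and 20.1 CPM in wild type. Of the 5 mesothelial genes, 3 were higher in both KPC libraries, while Upk3b and Lrrn4 were low and overlapped. Pericyte and smooth muscle markers summed to 2350 and 1443 CPM in KPC and 512 and 1271 CPM in wild type. That list was mixed: of its 6 genes, 2 were higher and 1 was lower in both KPC libraries, and 3 overlapped. Des stood at 1507 and 620 CPM in KPC against 5.32 and 281 CPM in wild type. The lower one, Cspg4, stood at 14.3 and 15.0 CPM in KPC against 102 and 31.7 CPM in wild type. Endothelial and Schwann markers stood out in wild type 1, at a summed 626 and 26.7 CPM, against at most 38.3 and 3.67 CPM in each other library. Endocrine markers stood out in wild type 2, at 941 CPM against at most 1.75 CPM elsewhere; Ins1, Gcg and Sst had 0 counts in KPC 1, and Sst also in KPC 2 and wild type 1. Of these lists, only the Schwann gene Foxd3 in KPC 1 was otherwise at 0.

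The genes that report pathway output were low in every library. Gli1 had too few counts to be tested between KPC and wild type fibroblasts. Ptch1 and Hhip were tested and not called, in a test that called 0% of all rows. Gli1, itself a direct target and an activator, had 3 and 15 counts in the KPC libraries against 7 and 4 counts in the wild type libraries. That is 0.0510 and 0.221 CPM in KPC, with exact 95% Poisson intervals of 0.0105 to 0.149 and 0.124 to 0.365 CPM, against 0.133 and 0.179 CPM in wild type, with intervals of 0.0535 to 0.274 and 0.0487 to 0.458 CPM. These intervals cover counting error only. The KPC libraries lay on either side of the wild type ones, and these few counts did not separate the groups. What size of difference in Gli1 they could have shown was not tested. The Gli1 reads covered 111 and 423 bases in KPC and 192 and 114 bases in wild type, in an interval of 11700 bases (chromosome 10, 127329890 to 127341589, mm10 build). An antisense gene, Gm47200, overlaps 9199 of those bases, and no strand was known for the counts, so part of these few reads may belong to it.

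Ptch1, the receptor that restrains Smoothened and is induced as feedback, stood at 1.38 and 1.40 CPM in KPC against 2.05 and 1.88 CPM in wild type. Both KPC libraries lay below both wild type libraries. Its log2 fold change was -0.50 ± 0.28 (SE; 95% interval -1.22 to 0.21), and edgeR's quasi-likelihood test with Benjamini-Hochberg adjustment did not call it (adjusted p = 0.655). Over all 23046 tested rows, 20.5% were lower in both KPC libraries. Hhip, a membrane protein that binds ligand as a decoy, stood at 0.510 and 0.398 CPM in KPC against 0.456 and 0.715 CPM in wild type, and the groups overlapped. Its log2 fold change was -0.33 ± 0.41 (SE; 95% interval -1.41 to 0.74; edgeR adjusted p = 0.863), on 16 to 30 counts a library. It was -0.01 without wild type 2 and -0.66 without wild type 1.

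**Figure D1:**
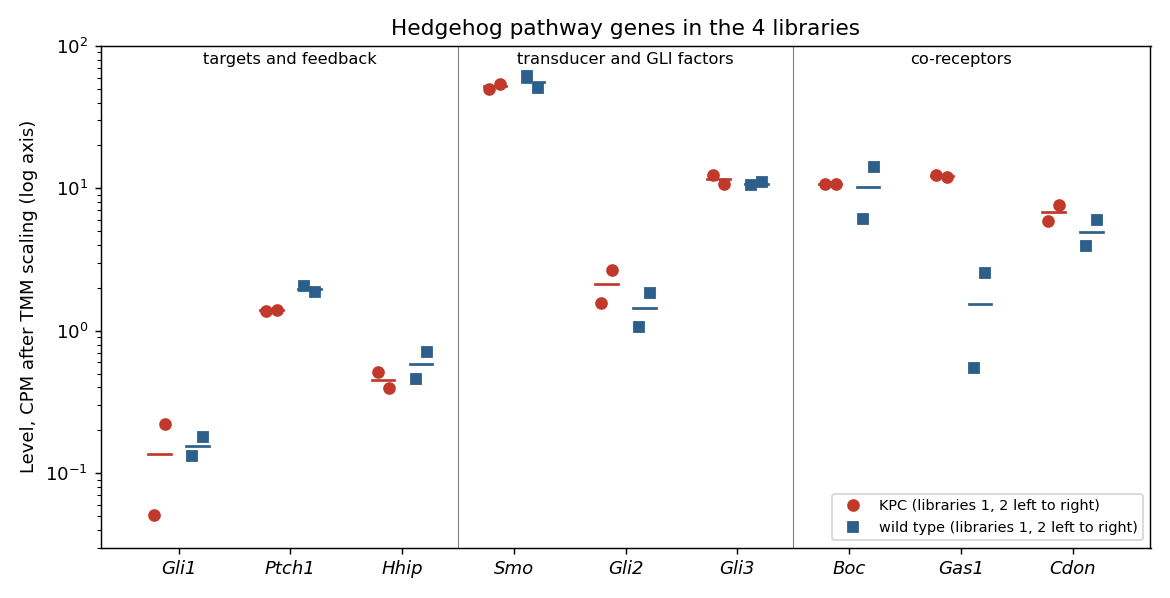
Level of each of the 9 Hedgehog pathway genes in CPM after TMM scaling (log axis) in the 2 KPC libraries (circles, left of each pair) and the 2 wild type libraries (squares, right); bars are group means. Gas1 is the gene whose groups lie farthest apart, at 12.5 and 12.0 CPM in KPC against 0.551 and 2.55 CPM in wild type.

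Smo and the GLI factors, which carry the signal, overlapped between the groups. Smo had 50.1 and 54.2 CPM in KPC against 61.2 and 50.5 CPM in wild type, a log2 fold change of -0.10 ± 0.18 (SE; 95% interval -0.58 to 0.38; edgeR adjusted p = 0.919). Gli3, the main repressor of the family, had 12.5 and 10.7 CPM in KPC against 10.6 and 11.0 CPM in wild type, a log2 fold change of 0.11 ± 0.20 (SE; 95% interval -0.41 to 0.63; edgeR adjusted p = 0.922). The 4 libraries of each gene overlapped, and the intervals of both genes leave out a 2-fold change in either direction. Gli2, the main activator early in signalling, was less settled, at 1.56 and 2.68 CPM in KPC against 1.06 and 1.83 CPM in wild type. Its log2 fold change was 0.57 ± 0.45 (SE; 95% interval -0.60 to 1.75; edgeR adjusted p = 0.761), and it was 0.12 without KPC 2 and 1.00 without wild type 2. Replicate 2 was the higher library in each genotype, and KPC 1 lay below wild type 2.

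The relative make-up of the GLI genes can be compared only per length, here CPM per kilobase of annotated exon. The counts were taken to run over introns too, so reads in introns raise the value of a gene on this scale. On that scale Gli3 held 84.5% and 71.9% of the summed GLI level in KPC against 85.7% and 79.0% in wild type. Gli2 held 14.8% and 25.0% in KPC against 12.1% and 18.3% in wild type. Gli1 held 0.719% and 3.08% in KPC against 2.25% and 2.67% in wild type. Gli3 was thus the highest of the GLI genes on this scale in all 4 libraries and Gli1 the lowest. The level of Ptch1 relative to Smo on the same scale was 1.45% and 1.37% in KPC against 1.78% and 1.97% in wild type. The Ptch1 row runs from 63511534 to 63565520 on chromosome 13, minus strand. The annotated gene runs from 63508328 to 63573598, past the row at both ends. Reads outside the row were not counted, which can lower Ptch1.

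The co-receptors held the one wide difference among the 9 genes. Gas1, a membrane-anchored protein first known from growth-arrested fibroblasts, had 738 and 814 counts in KPC against 29 and 57 counts in wild type. That is 12.5 and 12.0 CPM in KPC, with exact 95% Poisson intervals of 11.7 to 13.5 and 11.2 to 12.9 CPM, against 0.551 and 2.55 CPM in wild type, with intervals of 0.369 to 0.792 and 1.93 to 3.30 CPM. The KPC libraries were close to each other and far above both wild type libraries, which differed from each other beyond counting error. Gas1 averaged 12.3 ± 0.384 CPM in KPC and 1.55 ± 1.41 CPM in wild type (SD, n = 2 each).

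The log2 fold change of Gas1 was 3.04 ± 0.75 (SE; 95% interval 1.10 to 4.99). It did not pass edgeR's quasi-likelihood test over all rows (adjusted p = 0.425, unadjusted p = 0.0105). The test called 0% of all rows, while 8.67% had an unadjusted p under 0.05 and 20.6% were higher in both KPC libraries. limma voom did not call Gas1 either (adjusted p = 0.295). DESeq2, which called 2.72% of all rows, called it higher in KPC (adjusted p = 0.00163). Without wild type 2, edgeR called it as well, at a log2 fold change of 4.48 (adjusted p = 0.0131), in a fit that called 3.47% of rows; without wild type 1 the log2 fold change was 2.27 (adjusted p = 0.140, 0.0209% of rows called). In such fits the lone library of a group is assumed to vary like the other group.

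Where the Gas1 reads lay was also recorded. Gas1 has no intron, and its row (chromosome 13, 60174406 to 60177365, mm10 build, minus strand) is all exon, 2960 bases long. Reads covered 2845 and 2891 of these bases in KPC, 96.1% and 97.7%, against 855 and 1294 bases in wild type, 28.9% and 43.7%. In KPC the reads therefore spanned nearly the whole transcript rather than a short stretch. Cover depends on the number of reads, and wild type had only 29 and 57 counts. Its lower cover therefore does not show that its reads lay in a short stretch. A long noncoding RNA gene on the other strand, Gm48488, overlaps 684 of the 2960 bases, and reads inside that overlap were not counted apart.

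Boc, an immunoglobulin-family receptor, did not separate the groups, at 10.7 and 10.8 CPM in KPC against 6.10 and 14.2 CPM in wild type. The KPC libraries fell between the wild type ones. Its log2 fold change was 0.08 ± 0.43 (SE; 95% interval -1.05 to 1.21; edgeR adjusted p = 0.979), and it was -0.41 without wild type 1 and 0.81 without wild type 2. Cdon, its close relative, stood at 5.91 and 7.66 CPM in KPC against 3.94 and 5.95 CPM in wild type. KPC 1 and wild type 2 were level, so the groups just overlapped. The log2 fold change of Cdon was 0.46 ± 0.32 (SE; 95% interval -0.36 to 1.29; edgeR adjusted p = 0.718), and it was 0.19 without wild type 1 and 0.79 without wild type 2. In all 3 co-receptors wild type 1 was the lowest of the 4 libraries.

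**Figure D2:**
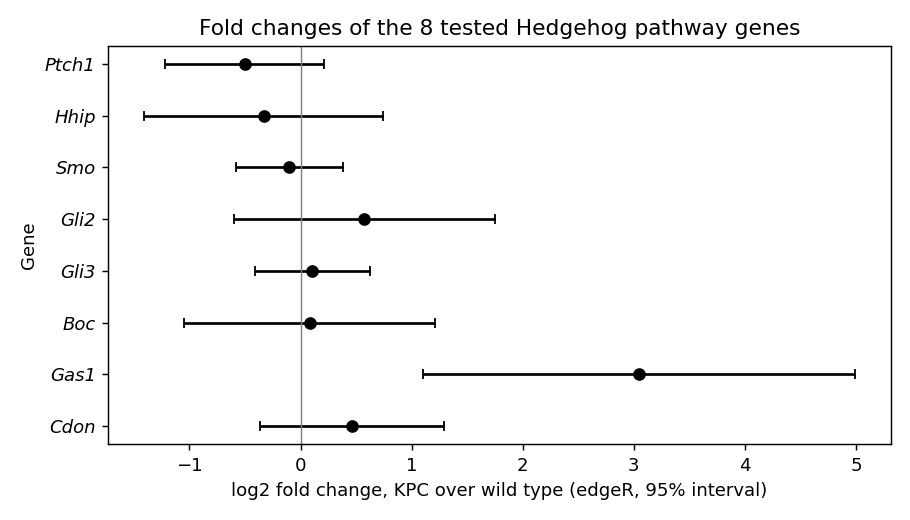
log2 fold change of KPC over wild type with its 95% interval for the 8 Hedgehog pathway genes that were tested, from edgeR's quasi-likelihood fit; Gli1 had too few counts. The interval of Gas1, 1.10 to 4.99, lies above 0 before adjustment for the number of rows tested; the other 7 intervals include 0.

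Per kilobase of exon, the make-up of the co-receptors was reordered between the groups. Gas1 held 57.3% and 54.3% of the summed co-receptor level in KPC against 9.01% and 17.8% in wild type. Boc held 32.4% in each KPC library against 66.3% and 66.2% in wild type. Cdon held 10.4% and 13.3% in KPC against 24.7% and 16.0% in wild type. Gas1 was at 1.77 and 1.67 times the level of Boc in KPC against 0.136 and 0.270 times in wild type. So Gas1 was the highest co-receptor on this scale in both KPC libraries, and Boc was in both wild type libraries. Reads in introns can raise Boc and Cdon on this scale but not Gas1, which has no intron. These shares sum to a fixed total, so a higher share of Gas1 lowers those of Boc and Cdon without any change in their own levels.

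**Figure D3:**
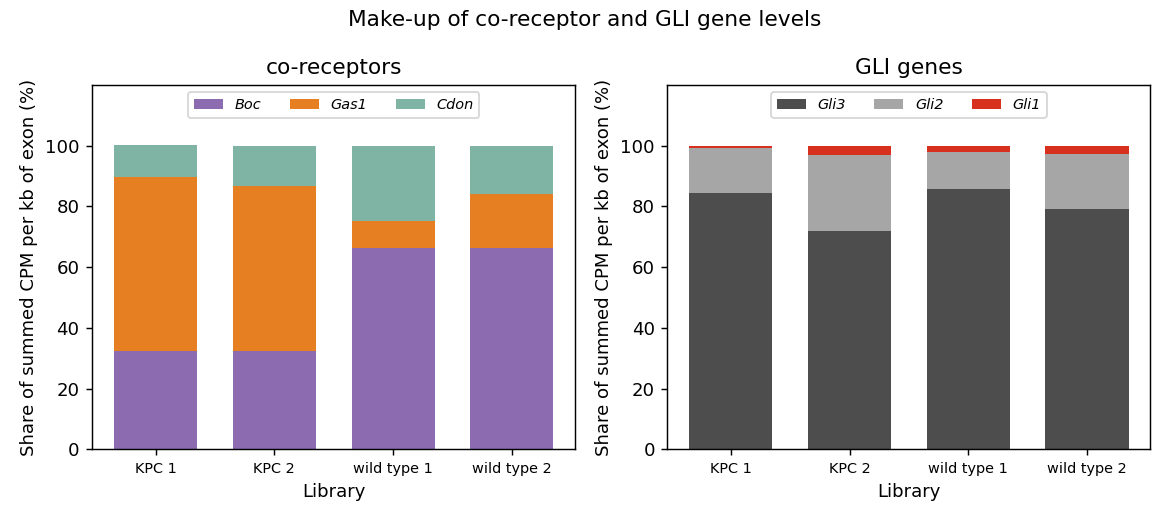
Share of each gene in the summed CPM per kilobase of exon of the co-receptors (left) and of the GLI genes (right), in each KPC library and then each wild type library. Gas1 makes up 57.3% and 54.3% of the co-receptor level in KPC against 9.01% and 17.8% in wild type, while Gli3 is the largest share of the GLI genes in all 4 libraries.

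Across all 9 genes, the order of levels per kilobase in KPC was Smo (9.61 ± 0.540 CPM per kilobase, SD, n = 2), Gas1 (4.14 ± 0.130), Boc, Gli3, Cdon, Gli2, Ptch1, Hhip and Gli1 (0.0296 ± 0.0261). Hhip and Gli1 were the only neighbours whose libraries overlapped there. In wild type the order was Smo (10.3 ± 1.40 CPM per kilobase, SD, n = 2), Boc, Gli3, Cdon, Gas1 (0.524 ± 0.477), Gli2, Ptch1, Hhip and Gli1 (0.0339 ± 0.00702). There Gas1 overlapped both Cdon and Gli2, its neighbours in that order, and Gli2 overlapped Ptch1, with Ptch1 the higher of that pair in wild type 1. By mean, Gas1 had rank 2 in KPC and rank 5 in wild type.

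Targets stood lower relative to co-receptors in both KPC libraries, by a smaller margin when Gas1 was left out. The mean log2 CPM of Gli1, Ptch1 and Hhip was -1.28 and -0.87 in KPC against -0.83 and -0.55 in wild type. The mean log2 CPM of Boc, Gas1 and Cdon was 3.22 and 3.32 in KPC against 1.28 and 2.60 in wild type. Targets minus co-receptors was therefore -4.49 and -4.19 in KPC against -2.11 and -3.15 in wild type, a difference of -1.71 between the group means. The groups did not overlap in this value, as they did not for 41.1% of all tested rows taken singly. The spread within groups was 0.54 (pooled SD, n = 2 each). Gli1, on 3 to 15 counts a library, weighs as much in the target mean as Ptch1 or Hhip, and no alternative left it out. Without Gas1 the value was -4.27 and -4.06 in KPC against -3.13 and -3.76 in wild type, a difference of -0.72. A value built from the chosen genes carries no p.

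Gas1 differed between the same libraries in which the macrophage markers differed. Markers of other lists differed between them too. Higher in both KPC libraries were 4 of the 8 ductal and epithelial and 3 of the 5 mesothelial markers, and 0 were lower in both. Of the 6 pericyte and smooth muscle markers, 2 were higher and 1 was lower. Over all tested rows these shares were 20.6% and 20.5%. Muc1, an epithelial marker, stood at 17.7 and 9.27 CPM in KPC against 0.247 and 2.24 CPM in wild type. Cd68, a lysosomal protein of macrophages, stood at 18.8 and 28.9 CPM in KPC against 1.08 and 5.23 CPM in wild type, and the mannose receptor gene Mrc1 at 31.5 and 26.4 against 1.67 and 4.43 CPM. Both were among the 5 rows nearest to Gas1 in profile, of 13239 tested rows with a mean of at least 5 CPM, by the Euclidean distance of log2 CPM centred over the 4 libraries. The others were Anpep, a membrane aminopeptidase, Acp5, an acid phosphatase of osteoclasts and macrophages, and Atp6v0d2, a proton pump subunit. Distances ran from 0.492 (Cd68) to 0.677 (Atp6v0d2) in log2 units. Gas1 was chosen for this after its values were seen, and 4 libraries are few points for a likeness. In bulk RNA, fewer cells of a type and less RNA per cell cannot be told apart, and the part of these other cells in the Gas1 difference was not tested. Of the 8 fibroblast markers, 1 was higher and 2 were lower in both KPC libraries and 5 overlapped, where the groups did not overlap in 41.1% of all tested rows. Pdgfra, which overlapped, stood at 13.8 and 48.6 CPM in KPC against 19.3 and 34.6 CPM in wild type. Col1a1, the higher one, stood at 4800 and 5243 CPM in KPC against 4086 and 4714 CPM in wild type. The lower ones were Pdgfrb, at 69.1 and 118 CPM in KPC against 194 and 132 CPM in wild type, and Vim, at 1730 and 1697 CPM in KPC against 3693 and 2156 CPM in wild type.

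**Figure D4:**
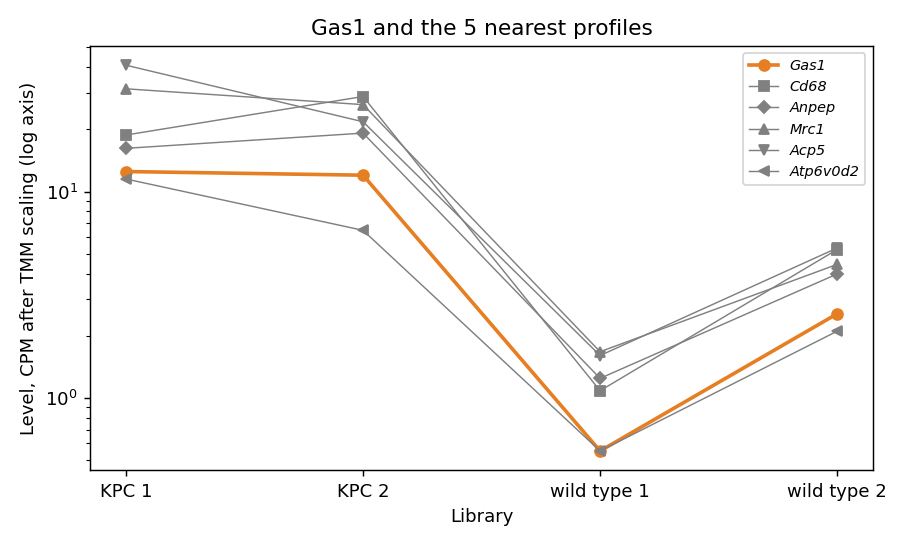
Level in CPM after TMM scaling (log axis) of Gas1 (orange) and of the 5 tested rows with the nearest centred profile (grey), in the 2 KPC libraries and then the 2 wild type libraries. All 6 are higher in both KPC libraries and lowest in wild type 1, where Gas1 is at 0.551 CPM and Cd68 at 1.08 CPM.

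The profile of Gli1 rested on 3 to 15 counts. The rows nearest to it by the same distance were Mmp23, Gm15778, Mrgprf, Ampd3 and Id4, at 0.227 to 0.370 log2 units. Mmp23, the nearest, stood at 26.3 and 62.6 CPM in KPC against 42.1 and 53.2 CPM in wild type, with KPC 1 lowest and KPC 2 highest as in Gli1.

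Few other genes of the pathway stood out. Of 41 further pathway genes, 39 were tested and 0 were called in either direction by edgeR, where 0% of all rows were called. By unadjusted p under 0.05, 0 were higher and 3 were lower in KPC, against 4.73% of all rows higher and 3.94% lower. Their median log2 fold change was 0.02, against -0.01 over all tested rows. DESeq2 called 1 of them and limma voom 0.

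Ligand transcripts were scarce. Shh, the ligand best known from pancreatic cancer, had 3 and 4 counts in KPC against 4 and 1 counts in wild type, and Ihh had 3 and 3 counts in KPC against 9 and 1 counts in wild type, both too few to test. The Shh reads covered 46 and 74 bases in KPC and 37 bases in each wild type library, the span most often seen for a single read in these tables. An antisense gene, 9530036O11Rik, overlaps 8828 of the 10286 bases of the Shh interval, so part of these few reads may belong to it. Dhh, the ligand of Schwann cells, was uneven, at 3.26 and 0.678 CPM in KPC against 7.74 and 0.313 CPM in wild type. It was highest in wild type 1, where the summed Schwann markers were highest too, at 26.7 CPM. The order differed elsewhere: that sum was 3.67 CPM in wild type 2, where Dhh was lowest, and 1.17 CPM in KPC 1. The part of Schwann cells in Dhh was not tested. Rhebl1 and the antisense gene Gm49442 overlap 1509 and 1825 of the 5509 bases of the Dhh interval, and reads there were not counted apart. These 3 ligands were named after their values were seen. Scube2, which helps release ligand from the cell that makes it, stood at 0.850 and 0.604 CPM in KPC against 1.90 and 1.30 CPM in wild type. Its log2 fold change was -1.15 ± 0.38 (SE), and edgeR did not call it (adjusted p = 0.541). Of the 9 genes for ligands and their release, 7 were tested, with 4 positive and 3 negative log2 fold changes.

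Genes of the cilium and of GLI control had the narrowest range of fold changes of the 4 lists. All 17 were tested, and their log2 fold changes lay between -0.38 and 0.27, with 11 positive and 6 negative. Sufu, which holds GLI proteins in the cytoplasm, had 12.4 and 11.9 CPM in KPC against 10.2 and 10.5 CPM in wild type, a log2 fold change of 0.23 ± 0.19 (SE; edgeR adjusted p = 0.765). The groups did not overlap for 2 of the 17, against 41.1% of all tested rows.

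The last list held 12 genes often named as Hedgehog targets in mesenchyme. Among them, Ccnd1, Ccnd2, Mycn and Bcl2 are not particular to mesenchyme. Of the 12, 9 had a negative log2 fold change, and the median was -0.86, against -0.01 over all tested rows. Both KPC libraries lay below both wild type libraries for 5 of the 12 and above them for 1, and edgeR called 0. Over all tested rows these shares were 20.5% and 20.6%. Foxc2, a forkhead factor of mesenchyme and vessels, stood at 4.21 and 5.20 CPM in KPC against 22.6 and 11.0 CPM in wild type. Its log2 fold change was -1.84 ± 0.41 (SE; edgeR adjusted p = 0.390), and it was the 1 further gene that DESeq2 called (adjusted p = 0.00332). Ccnd2, a D-type cyclin, stood at 76.0 and 81.0 CPM in KPC against 277 and 126 CPM in wild type, a log2 fold change of -1.36 ± 0.40 (SE; edgeR adjusted p = 0.518). Bmp4, named after its values were seen, shows how much 1 library could weigh: it stood at 4.26 and 4.11 CPM in KPC against 64.2 and 0.894 CPM in wild type. Foxf1, the forkhead factor most often used as a stromal Hedgehog target and also named afterwards, went the other way, at 4.47 and 4.58 CPM in KPC against 1.64 and 3.44 CPM in wild type (log2 fold change 0.85 ± 0.42 SE; edgeR adjusted p = 0.631). Another gene on the same strand, Gm20388, spans all 2721 bases of the Foxc2 interval and all 3758 of the Foxf1 interval. Its reads were not counted apart from theirs. Endothelial markers, at 626 CPM in wild type 1, were highest in the library where Foxc2, Ccnd2 and Bmp4 were highest, and their part in these values was not tested.

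**Figure D5:**
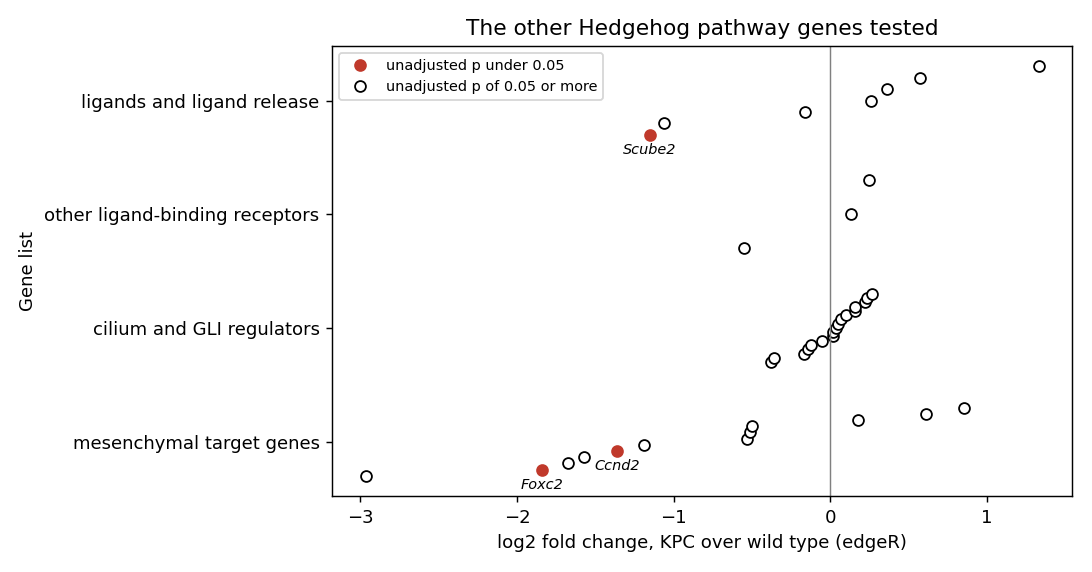
log2 fold change of KPC over wild type (edgeR) for the 39 further Hedgehog pathway genes tested, 1 point a gene, in 4 lists; filled points have an unadjusted p under 0.05 and are named. The cilium and GLI regulators lie between -0.38 and 0.27, while the genes listed as mesenchymal targets reach from -2.96 to 0.85.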

How the data were processed

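Poly-A RNA of 2 KPC and 2 wild type libraries went through single-read sequencing, per the labels. Tools named in the submitters' processing notes are TopHat2 2.0.3, SAMtools 0.1.18, bedtools and FastQC 0.10.1, and the build is mm10; the counting tool and its handling of strand and multiple matches are not given in the sources used here. The authors deposited 1 table a library, with a read count per gene interval, the covered bases and the interval length. The deposited fraction of covered bases was not used. That the counts are raw was read from the values, and that they run over introns was taken from the interval lengths.

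Counts were tested with edgeR 4.0.16 (R 4.3.3; filterByExpr minimum count 10, TMM factors, two-sided quasi-likelihood test, Benjamini-Hochberg over 23046 rows at 0.05), and with DESeq2 1.42.0 and limma 3.58.1 voom as alternatives. Each standard error is the fold change without shrinkage, in log2, over the square root of F. Log2 CPM used a prior count of 2. Exon lengths are unions of GENCODE M21 exons within each interval. Adgre1 was matched by its RefSeq synonym. Scripts were tested on simulated counts, where recovery of changed rows was required only at a dispersion below the common dispersion of the data, 0.1035. That checks the code and not the power of the tests in these data. An exact permutation test of 2 against 2 cannot go below 0.333 and was not used. The labels call the libraries biological replicates without naming animals. The p-values therefore reflect spread among these libraries, which may not be spread among animals. That spread includes other cells' markers, such as the endocrine ones, at a summed 1.75 CPM in wild type 1 and 941 CPM in wild type 2. The replicates of a group differed far beyond sampling noise (chi-square per degree of freedom 81.9 in KPC and 155 in wild type).

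The genes and lists were chosen with earlier results of these data known. The text names all 9 genes, further pathway genes with an unadjusted p under 0.05, the 5 rows nearest to Gli1, and those said to be named afterwards; other pathway genes it names serve as examples of their list. Some pathway genes are not reported here by name. Alternatives were other scalings, no count filter, other tools, a replicate block, each library left out and other make-ups of the target and co-receptor groups.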

Additional observations from a re-analysis of the deposited data

How the results depend on the processing

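edgeR called 0 rows with RLE or upper quartile factors, with no filter on low counts and with a replicate block, and limma voom called 0; DESeq2 called 627, and leaving out a library gave 0 to 835 (835 without wild type replicate 2, 5 without wild type replicate 1). Of the 9 genes, 0 were called in the same settings, DESeq2 called 1 (Gas1), and leaving out a library gave 0 to 1. Of the further pathway genes DESeq2 called 1 (Foxc2), and leaving out a library gave 0 to 3 (Bmp4, Ccnd2 and Foxc2 without wild type replicate 2). The cause was not tested. The target minus co-receptor difference of -1.71 ran from -2.23 to -1.19 with a library left out, was -1.70 to -1.78 with other scalings, prior count or targets, and was -0.72 without Gas1, a choice made after seeing the data. Smo ran from -0.229 to 0.048 and Boc from -0.41 to 0.81 with a library left out; Gli3 ran from 0.000 to 0.207, Gli2 from 0.12 to 1.00, Hhip from -0.66 to -0.01, Cdon from 0.19 to 0.79, Ptch1 from -0.56 to -0.43 and Gas1 from 2.27 to 4.48. Gli1 could be fitted only without the filter, or without KPC replicate 1 or either wild type library. Numbers 1 and 2 are not said to pair the libraries (correlation of deviations 0.136); with the replicate block Gas1 was at 3.33 (edgeR adjusted p = 0.338). Few counts limited Gli1, Hhip, Shh and Ihh.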
